A study of Bos taurus with 4 samples.

Results

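Solute carriers are the membrane proteins that move small molecules and ions into cells, out of them and between their compartments, and 144 of their genes were followed here in bovine gamma delta T cells. The genes were taken from the array's annotation as those with a single symbol that begins with SLC and a family number. Genes of the mitochondrial SLC25 family and 12 amino acid and iron carriers were left aside, and 27 and 8 of these were measured. The 144 genes were read by 203 of the 24016 probe sets tested and make up 144 of 9155 named genes. The symbols SLC7A6OS, a gene named for lying opposite SLC7A6, and SLC4A1AP, an adaptor protein, met the rule although they encode no carrier.

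The cells came from peripheral blood of 2 calves, 301 and 303, and had been sorted to a purity above 97% and rested overnight. Each calf's cells were then exposed for 4 h to an aqueous apple polyphenol extract (APP, 42.2 µg/ml) or to phosphate-buffered saline (PBS), which gave 2 APP arrays and 2 PBS arrays. The labels give calves of 1 to 6 months while the series' design text calls them neonatal, and no genotype, breed or extract composition is given in the sources used here. Values are ratios of a probe set's signal to its own median over the 4 arrays, so a change between arrays can be read but the level of a gene, and whether it lay above background, cannot. For the same reason the labelled cell type could not be checked against the level of its markers.

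Resting T cells have modest needs for outside nutrients, and activated ones take up more glucose, nucleosides and metals. Glucose enters through SLC2 (GLUT) proteins, lactate and pyruvate cross with a proton through SLC16 (MCT) proteins, and nucleosides pass through SLC29 (ENT) carriers or are pumped by SLC28 (CNT) proteins. Zinc enters the cytosol through SLC39 (ZIP) proteins and leaves it through SLC30 (ZnT) proteins. SLC35 proteins act inside the cell, where most known members load nucleotide sugars into the Golgi and the endoplasmic reticulum.

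The largest changes among the carriers were rises, those of SLC29A1 and SLC16A1, while 9 of the 14 genes with a log2 change beyond 1 in size fell. SLC29A1 rose 12.9-fold, SLC16A1 6.27-fold, SLC39A14 3.79-fold, SLC38A5 3.47-fold and SLC2A1 2.02-fold. The largest falls were those of SLC27A2 (3.43-fold), SLC35A3 (2.64-fold) and SLC8B1 (2.57-fold). A change was called at an adjusted p under 0.05 in limma's moderated test, which compared treatments within calves. By that rule 33 of the 144 genes rose, 29 fell and 82 were not called. Over all 9155 genes 52.7% were called, 23.0% as rises and 29.7% as falls, beside 43.1% of the carriers, 22.9% as rises and 20.1% as falls. The share of rises thus stood at the level of all genes. The median change on the log2 scale was 0.08 for the carriers and 0.01 for all genes.

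**Figure D1:**
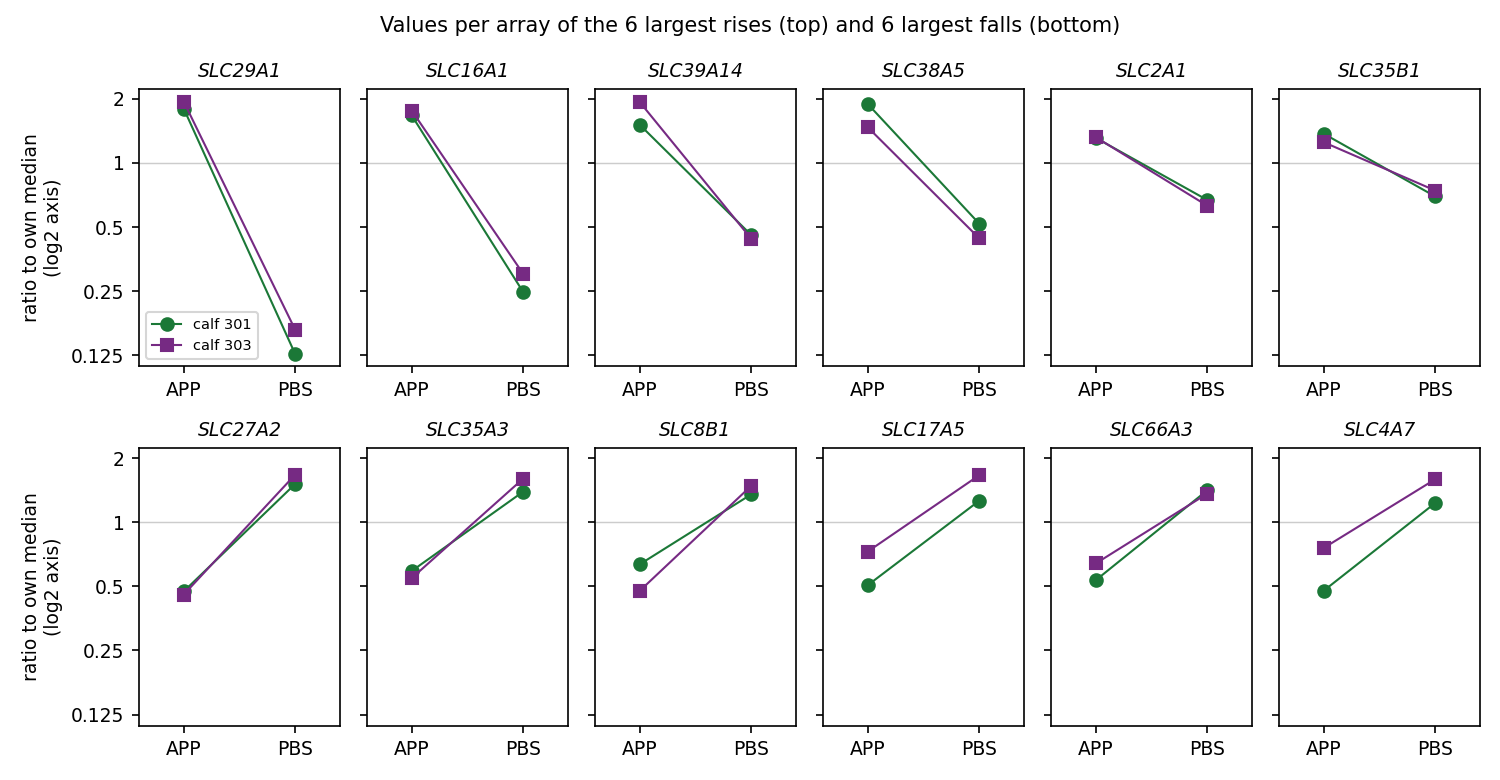
Ratio of each gene to its own median over the 4 arrays (log2 axis) in the APP and PBS arrays of calf 301 (circles) and calf 303 (squares), for the 6 top rises (upper row) and 6 top falls (lower row) among the carriers, values as deposited. For SLC29A1 the APP arrays stood at 1.80 and 1.94 and the PBS arrays at 0.127 and 0.165, and in all 12 panels the groups are apart. After control scaling SLC35B1, the smallest of these rises, changed by 0.01.

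A rise of at least 2-fold in both calves was seen for 4 carriers (2.78%, against 3.50% of all genes) and such a fall for 6 (4.17%, against 6.29%). Both APP arrays lay above both PBS arrays for 59 carriers (41.0%, against 36.6% of all genes) and below them for 38 (26.4%, against 37.2%). Among the 62 carriers called, SLC2A3 and SLC39A11 were the 2 whose groups overlapped, and all 62 moved in the same direction in both calves. Without the calf as a block 19 of the 144 carriers rose and 22 fell, beside 1399 and 2161 of all 9155 genes. In each unblocked fit that left out 1 array, fewer genes were called in either direction than with all 4 arrays and the block. This held for the carriers and for all genes.

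The direction of small changes depended on how arrays were scaled. The spiked hybridization controls bioB, bioC and bioD, read by 14 probe sets, were 0.85 higher on the log2 scale in APP arrays than in PBS arrays (0.76 in calf 301 and 0.94 in calf 303). With arrays scaled to these controls, called control scaling here, the median of all genes moved to -0.84 and that of the carriers to -0.77. On that scale 4 carriers rose (SLC29A1, SLC16A1, SLC39A14 and SLC38A5; 2.78%, against 3.12% of all genes) and 132 fell (91.7%, against 89.4%). Rises made up 2.94% of the carriers called instead of 53.2%, and 3.38% of all genes called instead of 43.6%. The adjusted p after control scaling followed the size of a change and not the gap between the calves. SLC29A2 and SLC27A1 both stood at -1.22, with adjusted p of 7.37e-15 and 7.5e-15 (limma), while their calf gaps as deposited were 0.68 and 0.09. Calls after control scaling thus do not weigh a gene's own spread, unlike those on the deposited scale. The changes below are on the deposited scale, where the other 29 rises stand only relative to the bulk of genes. Neither scale gives the amount of a transcript per cell, since the input was fixed at 15 µg of total RNA. SLC2A1 (0.16) and SLC35B1 (0.01) were the 2 others of the 33 above 0 after control scaling. In these bulk samples fewer cells of a type and less RNA per cell cannot be told apart.

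Of the nucleoside carriers, 1 of 4 rose (against 23.0% of all genes) and none fell (against 29.7%). SLC29A1 (ENT1), the equilibrative carrier of the cell surface that also passes adenosine, had ratios of 1.80 and 1.94 in the APP arrays of calves 301 and 303, against 0.127 and 0.165 in the PBS arrays. Each APP array thus stood far above each PBS array. Its log2 change was 3.69 ± 0.19 (SD, n = 2 calves), with an adjusted p of 5.91e-06 in limma's test, and it ranked 16th by rise among all 9155 genes. SLC29A2 (ENT2), a second equilibrative carrier, had 0.979 and 0.643 in APP arrays, against 1.00 and 1.05 in PBS arrays. The calves gave -0.03 and -0.71, and the mean of -0.37 was not called (adjusted p = 0.0924, limma). Leaving out APP 301 gave -0.67, which was called (adjusted p = 0.0181, limma). SLC29A3 (ENT3), which serves lysosomes, changed by 0.09 and the sodium-coupled SLC28A3 (CNT3) by 0.16, and neither passed. After control scaling, SLC29A1 stood at 2.84 and the median of the 4 genes at -0.73, against 0.12 as deposited.

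Enzymes that act on nucleosides after their entry moved both ways over the same arrays. PNP, which splits purine nucleosides, had ratios of 1.57 and 1.56 in APP arrays, against 0.390 and 0.427 in PBS arrays, and rose 3.83-fold. UCK2, a uridine and cytidine kinase, had 1.36 and 1.90 in APP arrays, against 0.568 and 0.620 in PBS arrays, and rose 2.70-fold. The deoxynucleoside kinases went the other way. TK1 fell 3.29-fold (-1.91 in calf 301 and -1.53 in calf 303) and DCK 2.78-fold (-1.35 and -1.59). DCK stood at 0.454 and 0.829 in APP arrays and at 1.16 and 2.50 in PBS arrays, and its call was lost without the block (adjusted p = 0.0509, limma), without APP 301 (-1.04) or without PBS 303 (-0.92). NT5C2, a cytosolic nucleotidase, fell 2.01-fold. Of the other nucleoside enzymes measured, DGUOK fell by 0.28. ADA (-0.30), ADK (-0.23), UCK1 (0.03), UPP1 (0.24) and NT5E (0.26) were not called. All these enzymes belong to 26 measured partners of carriers, of 40 listed. Among the 26, 8 rose (30.8%, against 23.0% of all genes), 5 fell (19.2%, against 29.7%) and 13 did not pass.

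Of the mono- and dicarboxylate families SLC16 and SLC13, 2 of 6 genes rose (33.3%, against 23.0% of all genes) and none fell (against 29.7%). SLC16A1 (MCT1), which carries lactate and pyruvate, had ratios of 1.67 and 1.76 in APP arrays, against 0.248 and 0.302 in PBS arrays. The gap between treatments was many times the gap between calves, with a log2 change of 2.65 ± 0.14 (SD, n = 2 calves; adjusted p = 1.08e-05, limma). SLC16A3 (MCT4), the lactate exporter of glycolytic cells, rose by 0.30 with an adjusted p of 0.0397 in limma's test (0.39 in calf 301, 0.22 in calf 303). Of its 3 probe sets 1 rose (0.56) and the others, at 0.11 and 0.23, did not pass. Its call was lost without the block (adjusted p = 0.198, limma) and when any 1 array was left out, with changes between 0.11 (without APP 301) and 0.49 (without APP 303), and after control scaling it stood at -0.55. SLC16A13 (0.06) and the sodium-coupled carriers SLC13A2 (0.13), SLC13A3 (0.19) and SLC13A4 (0.07), the last a carrier of sulfate, did not pass. BSG, the chaperone that brings MCT1 and MCT4 to the cell surface, was not called (0.31 and 0.03 in the calves; adjusted p = 0.226, limma).

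Sugar carriers rose in 3 of 16 cases (18.8%, against 23.0% of all genes) and fell in 1 (6.25%, against 29.7%). SLC2A1 (GLUT1), the main glucose importer of activated T cells, had ratios of 1.31 and 1.32 in APP arrays, against 0.670 and 0.630 in PBS arrays. The calves agreed closely, with a change of 1.02 ± 0.07 (SD, n = 2 calves; adjusted p = 0.000181, limma). After control scaling SLC2A1 stood at 0.16 and was not called (adjusted p = 0.295, limma). SLC2A3 (GLUT3), a high-affinity glucose importer, had 2.34 and 0.946 in APP arrays, against 1.04 and 0.655 in PBS arrays. It was higher with APP within each calf (1.17 in calf 301 and 0.53 in calf 303), but the APP value of calf 303 lay below the PBS value of calf 301. Its change of 0.85 passed with the calf as a block (adjusted p = 0.00347, limma) and not without it (adjusted p = 0.204, limma). Without the APP array of calf 301 the change was 0.19, without the PBS array of calf 301 1.18, without the PBS array of calf 303 0.51 and without the APP array of calf 303 1.50, and the last was the one that still passed (adjusted p = 0.0185, limma). The third gene that rose was SLC45A1 (0.34). SLC37A1, which exchanges glucose 6-phosphate for phosphate in the endoplasmic reticulum, fell by 0.67 and lost its call without the PBS array of calf 303 (adjusted p = 0.0873, limma). The other 12, among them the gut and kidney carriers SLC5A1 and SLC5A2, the muscle and fat carrier SLC2A4 and the fructose carrier SLC2A5, lay between -0.06 (SLC2A2) and 0.33 (SLC2A6). The class median was 0.22, or -0.63 after control scaling. In each fit that left out APP 301, PBS 301 or PBS 303, and without the block, 1 sugar carrier rose.

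**Figure D2:**
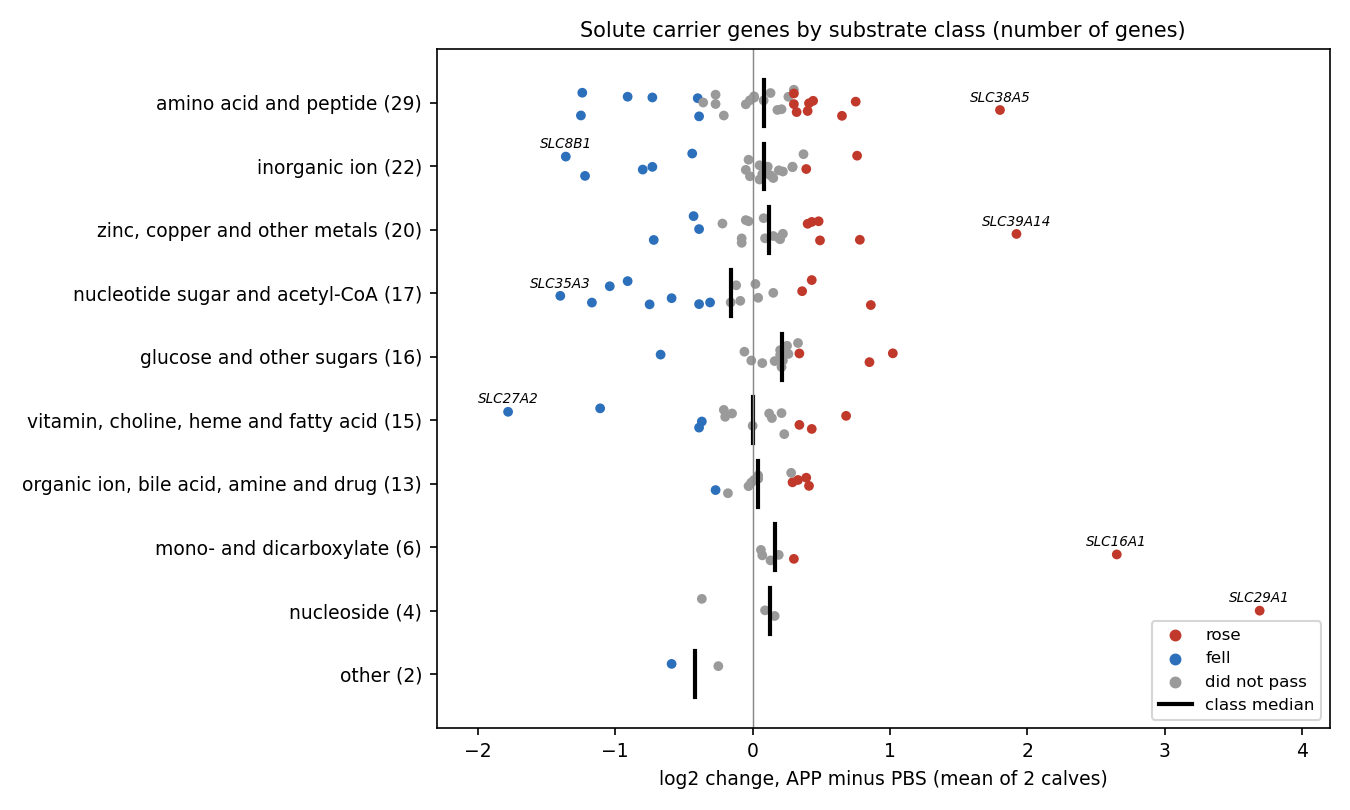
Log2 change of each of the 144 genes (horizontal axis, APP minus PBS, mean of 2 calves, values as deposited), in rows by substrate class with the number of genes. Red points rose, blue points fell and grey points did not pass, black bars are class medians, and names mark the leading genes. SLC29A1 at 3.69 and SLC16A1 at 2.65 stand apart from their classes, whose medians were 0.12 and 0.16. After control scaling every class median lies below 0.

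Among carriers of inorganic ions, 5 of 22 fell (22.7%, against 29.7% of all genes) and 2 rose (9.09%, against 23.0%). SLC8B1, which lets calcium out of mitochondria in exchange for sodium, had ratios of 0.634 and 0.476 in APP arrays, against 1.35 and 1.48 in PBS arrays, a change of -1.36 ± 0.38 (SD, n = 2 calves; adjusted p = 0.000256, limma). SLC4A7, a sodium-bicarbonate cotransporter that brings base into the cell, had 0.477 and 0.757 in APP arrays, against 1.23 and 1.59 in PBS arrays, and fell by 1.22. Its adjusted p was 0.000146 with all arrays and 0.0568 without the PBS array of calf 303 (limma). In both genes the APP arrays lay below the PBS arrays. SLC12A2 (NKCC1), the sodium-potassium-chloride cotransporter, fell by 0.73 ± 0.09, with -0.84 and -0.63 for its probe sets. The phosphate importer SLC20A2 had 0.915 and 0.706 in APP arrays, against 1.82 and 1.07 in PBS arrays. Its fall of 0.80 no longer passed without the block (adjusted p = 0.0769, limma) or without APP 301 (-0.98), PBS 301 (-0.41) or APP 303 (-0.61). Its relative SLC20A1 was not called (-0.05 and 0.20 in the calves; adjusted p = 0.593, limma). In each fit that left out APP 301, PBS 301 or PBS 303, 3 ion carriers fell. No ion carrier rose without PBS 303, and 1 rose in each fit without APP 301, PBS 301 or APP 303.

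The ion carriers that rose were SLC12A3 and the anion exchanger SLC4A3 (0.39). SLC12A3, known as the thiazide-sensitive sodium-chloride cotransporter of the kidney, had 1.13 and 1.35 in APP arrays, against 0.844 and 0.629 in PBS arrays, with a rise of 0.42 in calf 301 and 1.1 in calf 303. It lost its call without APP 303 (0.63) or PBS 303 (0.55) and stood at -0.09 after control scaling. SLC4A1, the anion exchanger of red cells, changed by 0.37 and did not pass (adjusted p = 0.0554, limma). The beta subunits of the sodium pump, whose gradient drives many of these carriers, moved in opposite directions. ATP1B3 had 1.37 and 1.27 in APP arrays, against 0.666 and 0.703 in PBS arrays (1.93-fold up, or 0.10 on the log2 scale after control scaling), and ATP1B1 had 0.509 and 0.916 in APP arrays, against 1.07 and 1.59 in PBS arrays (1.92-fold down). ATP1B1 did not pass without the block (adjusted p = 0.0764, limma), nor without APP 301 (-0.51), PBS 301 (-1.22) or PBS 303 (-0.65). SGK1, a kinase that regulates sodium transport, rose 2.84-fold, with 0.18 to 2.28 over its 3 probe sets.

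Carriers of zinc, copper and other metals rose in 6 of 20 cases (against 23.0% of all genes) and fell in 3 (against 29.7%). Their median change was 0.12, or -0.73 after control scaling. SLC39A14 (ZIP14), which imports zinc, manganese and iron, had ratios of 1.51 and 1.93 in APP arrays, against 0.459 and 0.441 in PBS arrays. Its change was 1.92 ± 0.29 (SD, n = 2 calves; adjusted p = 4.27e-05, limma), and it stood at 1.07 after control scaling. SLC39A8 (ZIP8), the closest relative of ZIP14 and a zinc carrier studied in T cells, was not called (0.02 and -0.19 in the calves; adjusted p = 0.538, limma). The copper importer SLC31A1 (CTR1) rose by 0.78 ± 0.22, while SLC31A2, its intracellular relative, fell by 0.72 ± 0.10. SLC31A1 had 1.20 and 1.48 in APP arrays, against 0.775 and 0.773 in PBS arrays, and stood at -0.07 after control scaling. The call of SLC31A2 was lost without the PBS array of calf 301 (-0.63, adjusted p = 0.073, limma).

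The zinc exporter SLC30A1 (ZnT1), a known target of the zinc sensor MTF1, rose by 0.48 ± 0.13 (SD, n = 2 calves; adjusted p = 0.00647, limma). It had 1.17 and 1.13 in APP arrays, against 0.791 and 0.862 in PBS arrays, and was not called without APP 301 (0.45), PBS 301 (0.42) or PBS 303 (0.54). Among partners of the zinc carriers, MTF1 itself rose by 0.54 and the metallothioneins MT1A and MT2A, which bind zinc and copper, by 0.45 and 0.41. The other metallothionein measured, MT3, was not called (0.26, adjusted p = 0.0565, limma). MTF1, MT1A, MT2A and SLC30A1 stood at -0.31, -0.40, -0.44 and -0.37 after control scaling. MTF1 was not called when either PBS array was left out, nor MT1A when any 1 array was, with adjusted p up to 0.146 (limma, without PBS 303). MT2A was not called without the block (adjusted p = 0.0986, limma) or without APP 301 (0.22), PBS 301 (0.49) or PBS 303 (0.33). The remaining rises were those of SLC39A1 (0.49), SLC39A4 (0.40) and SLC39A5 (0.43), and the remaining falls those of SLC39A13 (-0.43) and SLC39A11 (-0.39). SLC11A1, the metal carrier of phagocyte vesicles, was not called (-0.08 and 0.47 in the calves). In each fit that left out APP 301, PBS 301 or PBS 303, 2 metal carriers rose. No metal carrier fell without PBS 301, and 1 fell in each fit without APP 301, APP 303 or PBS 303.

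SLC33 and SLC35 genes, the class of nucleotide sugars and acetyl-CoA, fell in 8 of 17 cases (47.1%, against 29.7% of all genes). They rose in 3 (17.6%, against 23.0%), with a median change of -0.16, or -1.01 after control scaling. The class was set by family number, so its members need not all carry these substrates. SLC35A3, which brings UDP-N-acetylglucosamine into the Golgi, had ratios of 0.590 and 0.546 in APP arrays, against 1.39 and 1.60 in PBS arrays. Its change was -1.40 ± 0.22 (SD, n = 2 calves; adjusted p = 9.03e-05, limma). SLC35D2, also a UDP-N-acetylglucosamine carrier, had 0.775 and 0.645 in APP arrays, against 1.21 and 1.74 in PBS arrays, with a change of -0.64 in calf 301 and -1.43 in calf 303. The other falls included SLC35F5 (-1.17 ± 0.25), SLC35F6 (-0.91 ± 0.06), the CMP-sialic acid carrier SLC35A1 (-0.75 and -0.74 in the calves) and the carrier of sulfate donor PAPS, SLC35B2 (-0.31). The GDP-fucose carrier SLC35C1 averaged -0.39, but its probe sets read -0.97 and 0.19, and its call was lost when any 1 array was left out. SLC35B1, which exchanges ATP and ADP across the endoplasmic reticulum, went the other way. It had 1.37 and 1.25 in APP arrays, against 0.696 and 0.742 in PBS arrays, a rise of 0.86 ± 0.16, or a change of 0.01 after control scaling. The UDP-galactose carrier SLC35A2 (0.36) and SLC35A4 (0.43) were the others that rose, and the acetyl-CoA carrier SLC33A1 was not called (0.15). In each fit that left out a PBS array, 5 of the class fell. In each fit without APP 301, APP 303 or PBS 303, 1 of the class rose.

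Genes were put in classes by family number, so a class can hold members with another substrate. Of 29 genes of the amino acid and peptide families, 9 rose (31.0%, against 23.0% of all genes) and 6 fell (20.7%, against 29.7%). They include the SLC17 family, with the vesicular nucleotide carrier SLC17A9 (0.44, 1 of the 9) and the phosphate carrier SLC17A2 (0.13, not called). SLC38A5, a sodium-coupled carrier of glutamine, serine and glycine, had ratios of 1.89 and 1.47 in APP arrays, against 0.519 and 0.443 in PBS arrays. Its change was 1.80 ± 0.10 (SD, n = 2 calves; adjusted p = 2.47e-05, limma), or 0.95 after control scaling. The next rises were those of SLC66A2 (0.75 ± 0.27) and the taurine carrier SLC6A6 (0.65 ± 0.17), which stood at -0.10 and -0.20 on that scale. SLC6A6 was not called without APP 301 (0.46), PBS 301 (0.72) or PBS 303 (0.58). SLC17A5 (sialin), of the same SLC17 family and an exporter of sialic acid from lysosomes, fell the most in the class. It had 0.506 and 0.728 in APP arrays, against 1.26 and 1.66 in PBS arrays, a change of -1.25 ± 0.09 (adjusted p = 8.05e-05, limma).

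SLC66A1, which exports cationic amino acids from lysosomes, fell by 0.73, and its relative SLC66A3 by 1.24 ± 0.22. SLC7A7, a light chain that pairs with SLC3A2 to exchange cationic for neutral amino acids, had 0.473 and 0.886 in APP arrays, against 1.1 and 1.34 in PBS arrays. It fell by 1.22 in calf 301 and by 0.60 in calf 303, and was not called without the block (adjusted p = 0.0693, limma) or without APP 301 (-0.46), PBS 301 (-1.05) or PBS 303 (-0.77). SLC15A4, a lysosomal carrier of histidine and peptides, changed by -0.21 and did not pass. The class had a median of 0.08, or -0.78 after control scaling. Without the block 3 of its members rose, and leaving out 1 array at a time 2 or 3 rose. The falls numbered 3 without APP 301 and 3 without PBS 303.

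In the class of vitamin, choline, heme and fatty acid carriers, 4 of 15 fell (against 29.7% of all genes) and 3 rose (against 23.0%). SLC27A2, which takes up long-chain fatty acids and activates very long ones with coenzyme A, had ratios of 0.473 and 0.457 in APP arrays, against 1.51 and 1.67 in PBS arrays. Its change of -1.78 ± 0.14 (SD, n = 2 calves; adjusted p = 2.85e-05, limma) was the largest fall among the carriers. The choline transporter-like gene SLC44A2 had 0.520 and 0.704 in APP arrays, against 1.29 and 1.33 in PBS arrays, and fell by 1.11 ± 0.28, with -1.19 and -1.03 for its probe sets. SLC23A2, the sodium-coupled importer of vitamin C, had 1.20 and 1.14 in APP arrays, against 0.848 and 0.635 in PBS arrays. It rose by 0.68 ± 0.24 but was not called without APP 301 (0.64), APP 303 (0.72) or PBS 303 (0.47), and it stood at -0.18 after control scaling. The reduced folate carrier SLC19A1 rose by 0.43 ± 0.19 and the biotin and pantothenate carrier SLC5A6 by 0.34. SLC19A1 stood at -0.42 after control scaling and was not called without PBS 301 (0.46), APP 303 (0.32) or PBS 303 (0.40). Leaving out 1 array at a time, 0 or 1 of the class rose, and 2 fell in each fit without APP 301, PBS 301 or PBS 303.

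Organic ion, bile acid and amine carriers moved little, with all 13 changes between -0.27 (SLC22A17) and 0.41 (SLC51B). Of them 4 rose (30.8%, against 23.0% of all genes) and 1 fell, SLC22A17 (7.69%, against 29.7%). The rises were those of SLC51B, part of a bile acid exporter, the renal organic anion carrier SLC22A8 (0.39), SLC22A18 (0.33) and SLC22A23 (0.29). None of the 13 was called when any 1 array was left out. SLC51B, SLC22A8 and SLC22A18 stood at -0.45, -0.46 and -0.52 after control scaling. Of the genes that are no carriers, SLC7A6OS fell by 0.59, a call lost without PBS 303 (-0.47), and SLC4A1AP changed by -0.25 and did not pass (adjusted p = 0.0615, limma). SLC7A6OS lies opposite SLC7A6, and the annotation used here does not say which strand its probe sets read.

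**Figure D3:**
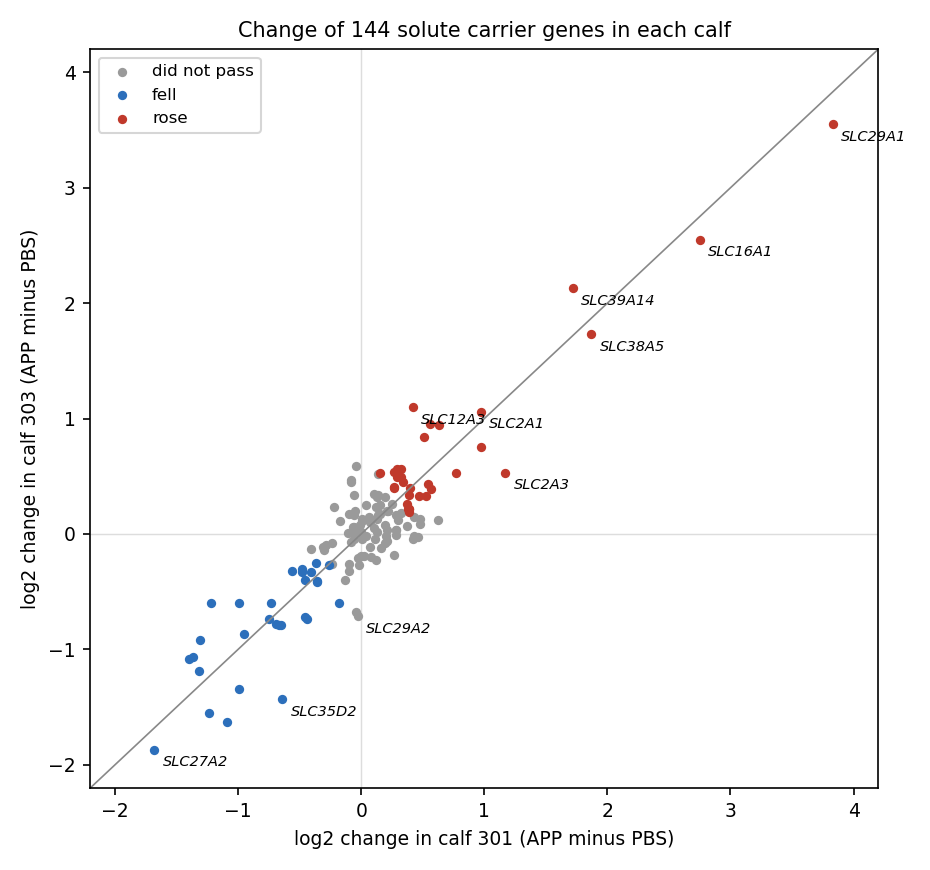
Log2 change (APP minus PBS, values as deposited) of the 144 genes in calf 301 (horizontal axis) and calf 303 (vertical axis), with the line of equal change. Red points rose, blue points fell and grey points did not pass, and all 62 called genes lie in the quadrants of equal sign. SLC2A3, SLC12A3, SLC35D2 and SLC29A2 lie farthest from the line among the labelled genes, and control scaling moves every point left by 0.76 and down by 0.94.

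Across the 144 genes, which share arrays and are not independent, the changes in calf 301 and calf 303 correlated with Pearson r = 0.914 and Spearman rho = 0.781. The SD of the changes was 0.659 in calf 301 and 0.669 in calf 303. The widest gaps between the calves were those of SLC35D2, SLC29A2 and SLC12A3, at 0.79, 0.68 and 0.68 on the log2 scale, and with 1 array per calf and treatment a difference in response could not be tested. The calves differed from each other across treatments in 2 of the 144 genes (1.39%, against 1.70% of all genes). SLC39A11, a zinc carrier of intracellular membranes, was 0.69 higher in calf 303 than in calf 301 (adjusted p = 0.0222, limma). In calf 303 it had 1.1 in the APP array and 1.46 in the PBS array, against 0.693 and 0.890 in calf 301, so both arrays of calf 303 lay above both of calf 301. SLC2A3 was 0.99 lower in calf 303 (adjusted p = 0.0335, limma).

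**Figure D4:**
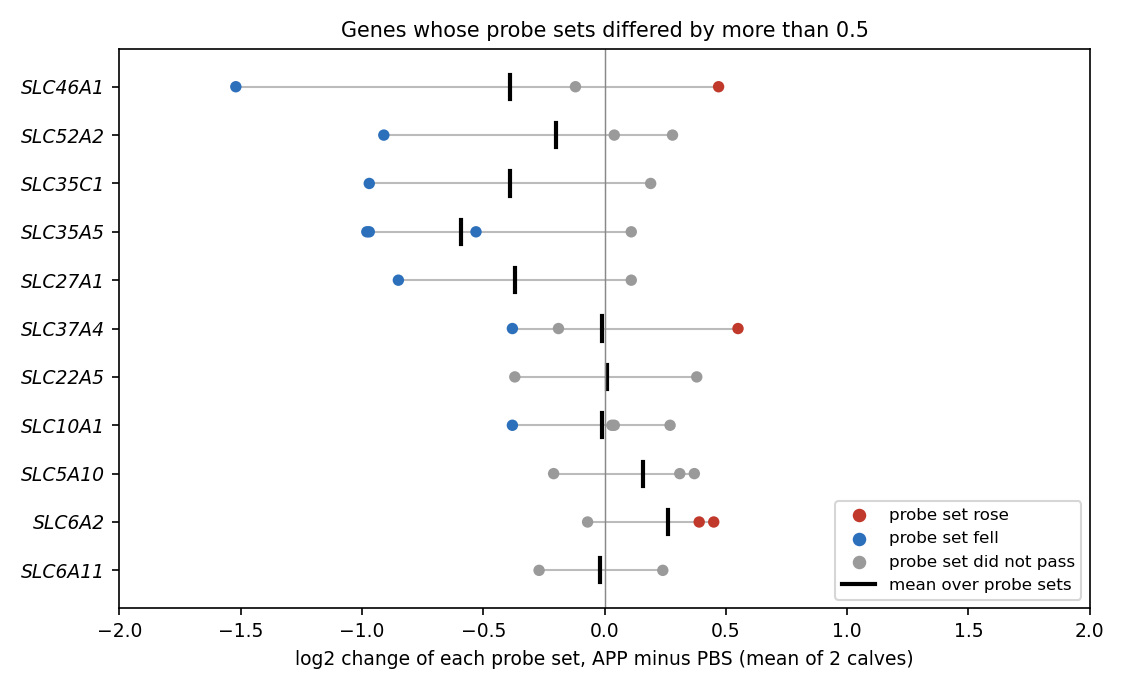
Log2 change of each probe set (horizontal axis, APP minus PBS, mean of 2 calves, values as deposited) for the 11 genes whose probe sets differed by more than 0.5. Points are coloured by the test over probe sets (red rose, blue fell, grey did not pass) and black bars are the gene means used elsewhere. The probe sets of SLC46A1 run from -1.52 to 0.47, and control scaling moves every point left by 0.85.

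A single probe set read 104 of the 144 genes and several read the other 40. In 11 of the 40 the changes of the probe sets lay over 0.5 apart. A test over all probe sets, which called 39.9% of them, gave 1 rise and 1 fall within each of 2 genes, SLC46A1 and SLC37A4. SLC46A1, the proton-coupled folate carrier, had probe sets at -1.52, -0.12 and 0.47, and the gene mean of -0.39 passed (adjusted p = 0.0155, limma). The median of the 3 did not (-0.12, adjusted p = 0.329, limma), nor did the mean without the block (adjusted p = 0.0548, limma). It was also lost without APP 301 (-0.27), PBS 301 (-0.42) or PBS 303 (-0.36). SLC52A2, a riboflavin carrier, averaged -0.20 and did not pass, with 1 of its 3 probe sets at -0.91 and the others at 0.04 and 0.28. SLC37A4, the glucose 6-phosphate carrier of the endoplasmic reticulum, averaged -0.01 over probe sets at -0.38, -0.19 and 0.55. The deposited values do not tell which probe set of such a gene reads its transcript. The rises of SLC29A1, SLC16A1, SLC39A14, SLC38A5 and SLC2A1 each rest on 1 probe set.

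Beside the 144 genes, the 8 amino acid and iron carriers left aside rose in 5 cases (62.5%, against 23.0% of all genes). They fell in 3 (37.5%, against 29.7%), with a median change of 1.06. The 27 mitochondrial SLC25 genes rose in 7 cases (25.9%, against 23.0% of all genes) and fell in 13 (48.1%, against 29.7%). Their median was -0.28. After control scaling the medians were 0.21 and -1.13. Over the same arrays markers of other blood cells moved as well. Of 9 measured monocyte and dendritic cell markers 3 rose (33.3%, against 23.0% of all genes) and none fell (against 29.7%). CD68 rose by 1.90 in calf 301 and 2.71 in calf 303, CD14 by 0.46 and FCGR1A by 0.46. The other 6 lay between -0.12 (ITGAM) and 0.25 (S100A9). Of 4 B cell markers 3 fell, by 0.56 to 1.04. Of 9 genes listed as gamma delta T cell markers 5 fell (55.6%, against 29.7% of all genes) and none rose. The falls were those of CD163L1 (-1.08), WC1.3 (-0.86), CD247 (-0.53), CD3G (-0.47) and CD2 (-0.29). TARP (-0.01), CD3E (-0.08), CD3D (-0.13) and ID3 (-0.21) were not called. Of 5 alpha beta T cell markers 2 rose and 1 fell, of 4 natural killer cell markers 1 rose, and platelet and erythroid markers gave no call. After control scaling every one of these lists had a median below 0. Whether a listed gene, such as CD2, CD3G, CD247 or BLK, marks only that cell type in calf blood was not tested. The part of these shifts in the changes of the carriers was not tested.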

How the data were processed

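Gene expression was measured on 4 Affymetrix bovine arrays, hybridised, per the labels' protocols, with biotin-labelled cRNA from 15 µg of total RNA. Probe sets were summarised with RMA, per the submitters' processing notes. The deposited values are linear ratios, as the values themselves show, since each probe set's median over arrays lies within 0.00054 of 1 after an array-wide factor is applied. The authors' ratios ran from 0.0264 to 6.814 and were log2 transformed here without further normalization. Leaving out 112 control probe sets, 24016 were tested, of which 13292 had 1 gene symbol, 86 several and 10638 none. Of the 13292, 13263 were matched by gene ID to the RefSeq table of ARS-UCD2.0. Probe sets of a gene were averaged on the log2 scale, giving 9155 genes.

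limma 3.58.1 in R 4.3.3 was fitted over all genes and again over all probe sets (two-sided, Benjamini-Hochberg, threshold 0.05), with the calf as a block, since per the sample titles each animal gave cells to both treatments. Over probe sets, the difference between the calves in APP arrays and that in PBS arrays had r = 0.514. The fit has 1 residual degree of freedom and borrows 5.86 prior ones over genes, and the standard error of the carriers' changes ran from 0.0946 to 0.179. With 2 arrays against 2 an exact permutation test that ignores the pairing cannot go below p = 0.33. The floor is higher when treatments are exchanged within calves only, and the number of arrays limits precision. The fit was tested on simulated data. Few genes changed in these and no array scaling was simulated, so calls under a shift of most genes were not tested. Alternatives were no block, leaving out each array, other array scalings, other ways to combine probe sets, robust moderation and a 2-fold minimum.

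The genes, substrate classes and lists were chosen with earlier results of these data known. The rule named the 12 largest rises and 12 largest falls, up to 3 genes per class, 17 carriers in any case where measured, the 3 widest gaps between calves and between probe sets, and 8 partner genes. Genes named beyond it were chosen after their values were seen.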

Additional observations from a re-analysis of the deposited data

How the results depend on the processing

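The results rest on 2 calves, on a ratio scale without levels and on the scaling of arrays. Centring on the median, quantile normalization, the median of probe sets, 1 probe set per gene and robust moderation left the counts of carriers that rose (31 to 33) and fell (25 to 29) near the 33 and 29 reported. Without the calf as a block, the pairing, 19 carriers rose and 22 fell, and 1399 of all genes rose instead of 2104. Leaving out 1 array at a time gave 8 to 14 rises and 14 to 20 falls of carriers and 745 to 1292 rises and 1305 to 2012 falls of all genes. The median of the carriers was then 0.07 to 0.08. These fits have no block, and the lone array of a treatment is assumed to vary like the others. A 2-fold change in both calves left 4 rises and 6 falls of carriers and 320 and 576 of all genes. Scaling to the hybridization controls gave 4 rises and 132 falls of carriers, 286 and 8182 of all genes and a median of -0.77 for the carriers, and 1 probe set per gene gave a median of 0.10. The 2 carriers that differed between the calves became 1 with median centring, 0 with quantile normalization, 1 with the median of probe sets, 0 with 1 probe set per gene and 11 when scaled to the controls.

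Of 41 carriers named by rule, 36 passed, and 6 of these lost the call without the block. Under the 10 alternatives other than the scaling to controls and the 2-fold minimum, 8 rises (SLC16A1, SLC29A1, SLC2A1, SLC31A1, SLC35B1, SLC38A5, SLC39A14 and SLC66A2) and 11 falls of carriers were called every time. Scaling to the controls turned SLC12A3 (-0.09), SLC16A3 (-0.55), SLC19A1 (-0.42), SLC20A1 (-0.78), SLC22A18 (-0.52), SLC22A8 (-0.46), SLC23A2 (-0.18), SLC28A3 (-0.69), SLC30A1 (-0.37), SLC31A1 (-0.07), SLC51B (-0.45), SLC66A2 (-0.10), SLC6A6 (-0.20), MTF1 (-0.31), MT1A (-0.40) and MT2A (-0.44) below 0 and left SLC2A3 at 0.00. SLC35C1 stood at 0.19 with 1 probe set per gene. The scaling moves every change by the same 0.85, which by construction turns the smaller rises. For the other shifts the cause was not tested.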
